A study of Mus musculus with 4 samples.

Results

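Described here are 6 genes known best from osteoclasts, the multinucleated cells that resorb bone: Atp6v0d2, Ocstamp, Dcstamp, Ctsk, Acp5 and Gpnmb, out of 30408 genes listed in the files. They were chosen by name after earlier results of these data were known, on their levels by cell type and on how often they were found in the same macrophages. Those levels and co-detections are therefore descriptions and carry no test. The cells came from MB49 tumours, grown from a bladder carcinoma line of a male mouse, in male and female mice. They were sorted into CD45-positive cells (leukocytes) and CD45-negative cells, and each combination of host sex and sort gave 1 library on the BD Rhapsody microwell system. The series asks how immune cells bear on the difference in tumour progression between the sexes. No genotype, strain, age or treatment of the mice is given in the labels used here, and neither is the number of mice or tumours behind a library. Each group being 1 library, nothing was replicated, no p-value was computed, and host sex and library cannot be told apart. Every interval in parentheses is a 95% interval for counting error only, and such intervals are too narrow where 1 cell holds many of a gene's UMIs (unique molecular identifiers, each standing for a captured RNA molecule).

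Osteoclasts form when precursors of the monocyte and macrophage lineage receive CSF1 and RANKL, the ligand encoded by Tnfsf11, through its receptor RANK, encoded by Tnfrsf11a. The transcription factors NFATc1 and MITF then switch on genes for cell fusion and for acid secretion and matrix digestion. Macrophages can use much the same fusion genes to form multinucleated giant cells. Of the 6 genes, Dcstamp and Ocstamp encode multipass membrane proteins needed for fusion. Atp6v0d2 encodes the d2 subunit of the V-ATPase, the pump that acidifies lysosomes and the resorption space, and is also needed for efficient fusion. Ctsk encodes cathepsin K, a collagen-degrading protease that fibroblasts also make, and Acp5 encodes tartrate-resistant acid phosphatase, the classical osteoclast stain. Gpnmb encodes a transmembrane glycoprotein of lysosomes and melanosomes that is a target of MITF and its relatives.

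In the GENCODE M21 annotation of GRCm38 (mm10, the build in the submitters' processing notes) all 6 are protein-coding genes on different chromosomes. Ocstamp lies on chromosome 2 (165393760 to 165400405, minus strand), Ctsk on chromosome 3 (95499256 to 95509362, plus strand), Atp6v0d2 on chromosome 4 (19876841 to 19922605, minus strand), Gpnmb on chromosome 6 (49036546 to 49070929, plus strand), Acp5 on chromosome 9 (22126727 to 22135711, minus strand) and Dcstamp on chromosome 15 (39745930 to 39760938, plus strand). The annotated RNA 6530413G14Rik overlaps an Acp5 exon on the opposite strand, so reads there could be shared if counting ignored strand, on which the labels and file headers used here are silent. None of the other 5 genes overlaps another annotated gene.

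The promoters of Ctsk, Acp5 and Gpnmb are shown because these genes were high in the same macrophage clusters (described further on), and because they have entries in the RefSeq promoter table (GRCm38.p6). Each run is the 250 bases before the start, 5′ to 3′ on the gene's strand. Capitals mark matches on either strand to the M-box TCATGTG (a site of the MITF family), the E-box CACGTG, the AP-1 motif TGANTCA or the PU.1 core GAGGAA. PU.1 is the lineage factor of macrophages and osteoclasts.
Ctsk, chr3:95498960-95499209, plus strand: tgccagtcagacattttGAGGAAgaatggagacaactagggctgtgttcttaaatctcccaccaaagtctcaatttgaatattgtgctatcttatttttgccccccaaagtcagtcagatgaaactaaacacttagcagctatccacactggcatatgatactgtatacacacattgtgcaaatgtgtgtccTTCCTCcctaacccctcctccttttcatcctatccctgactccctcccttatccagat
Acp5, chr9:22130599-22130848, minus strand: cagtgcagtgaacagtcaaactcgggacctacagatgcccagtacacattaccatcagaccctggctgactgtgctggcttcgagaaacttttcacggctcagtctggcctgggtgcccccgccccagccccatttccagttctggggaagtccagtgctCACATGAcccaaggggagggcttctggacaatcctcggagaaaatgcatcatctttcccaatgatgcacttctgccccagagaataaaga
Gpnmb, chr6:49036268-49036517, plus strand: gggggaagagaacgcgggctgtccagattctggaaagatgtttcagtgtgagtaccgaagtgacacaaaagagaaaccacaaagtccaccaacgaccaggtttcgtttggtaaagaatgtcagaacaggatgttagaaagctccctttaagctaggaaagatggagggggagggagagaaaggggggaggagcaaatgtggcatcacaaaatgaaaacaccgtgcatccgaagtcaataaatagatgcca
The Ctsk window held 2 matches to the PU.1 core, which 23.3% of the 32851 promoter windows of this length also hold. Of the 3 Acp5 starts in the table, the one shown held 1 match to the M-box, found in 3.25% of windows, and the other 2 held none of these motifs. No match to any of the 4 lay in the Gpnmb window. The E-box is in 6.02% and the AP-1 motif in 6.75% of windows, and neither was matched in these 3 genes. The short NFAT core GGAAA was searched as well but is not capitalised, since 55.6% of windows hold it. Ctsk had 0 matches to it, Gpnmb 2 and the Acp5 window shown 2.

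The matrices held 5152 to 6023 barcodes per library and 37705608 to 62273035 UMIs, of which 3905 to 5496 cells per library were kept. Barcodes are numbered rather than given as sequences, so those shared between libraries could not be counted, but no 2 libraries had a cell with identical counts. A cell was called macrophage-like (a macrophage from here on) when it had at least 7 of 10 macrophage markers and passed no other class's gate. Clusters of such cells led by type 2 dendritic cell or monocyte genes were then set aside, with 87 male and 191 female cells. That left 1974 male and 2327 female CD45-positive macrophages, with medians of 10808 and 8758 UMIs, and 2 and 3 macrophages in the CD45-negative libraries. The median macrophage had all 10 macrophage markers and at most 2 markers of any other class, and near the threshold 169 male and 205 female cells had exactly 7. A further 501 and 673 cells with at least 7 macrophage markers also passed the gate of another class, mostly deep cells (median 13456 and 13004 UMIs over all mixed cells), and were kept apart as mixed. The 2 and 3 macrophages of the CD45-negative libraries are too few to describe. Levels are CPM of summed UMIs, a gene's UMIs as a share of all UMIs of a class, on the usual scale of that unit.

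The 8 osteoclast markers checked did not agree among themselves, so osteoclast-like is used here for the 6 genes and not for a cell type. They summed to 277 CPM in male and 440 CPM in female macrophages, with 2 of the 8 at 0 in each. Calcr, the calcitonin receptor, was listed in none of the 4 libraries. Siglec15, a receptor of fusing osteoclasts, had 0 UMIs in both CD45-positive libraries, and Oscar, an immune receptor of osteoclasts, had 1 male and 2 female UMIs there. The other 5 markers were found. Nfatc1 stood at 90.4 CPM in male and 75.4 CPM in female macrophages, and Tnfrsf11a at 36.5 and 27.7 CPM. Mmp9 stood at 140 and 301 CPM, Itgb3 at 3.74 and 17.1 CPM and Car2 at 6.23 and 19.4 CPM. Each of these 5 was higher in another class of both CD45-positive libraries. In NK cells Nfatc1 stood at 421 CPM (male) and 555 CPM (female). Itgb3 was at 189 and 175 CPM there, and Car2 at 1328 and 1440 CPM. Neutrophils had Mmp9 at 1526 and 1176 CPM, and mature dendritic cells Tnfrsf11a at 120 and 115 CPM. Of 5 osteoblast genes, Bglap, Ibsp and Alpl had 0 UMIs in the macrophages of both libraries. Runx2 stood at 15.1 CPM (male) and 21.4 CPM (female), and Sp7 at 0 and 0.13 CPM.

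All 6 genes were found in macrophages of both CD45-positive libraries, and 3 of them were more than 2-fold higher in the female library, though none with macrophage clusters weighted alike. Atp6v0d2 stood at 58.5 CPM (55.3 to 61.8) in male and 213 CPM (207 to 219) in female macrophages, a female:male ratio of 3.64 (3.42 to 3.88). Gpnmb stood at 43.8 CPM (41.04 to 46.7) and 126 CPM (121 to 130), a ratio of 2.87 (2.67 to 3.09). Ctsk was the lowest of the 6, at 8.73 CPM (7.53 to 10.1) and 27.1 CPM, a ratio of 3.10 (2.63 to 3.67). For Ctsk, a single male cell held 148 of the 189 male UMIs. Without the cell with most UMIs in each library, the ratio became 12.6. The Ctsk ratio with clusters weighted alike keeps the single male cell and was not computed without it. At least 2-fold higher levels in the female library were found for 4.2% of the 13703 genes tested in macrophages, and in the male library for 3.71%. The median ratio of all those genes was 0.01 on the log2 scale. Since the genes were chosen on these levels, nothing is read from the count of 3 against that background.

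The fusion genes and Acp5 differed less. Ocstamp stood at 150 CPM (145 to 156) in male and 221 CPM (215 to 227) in female macrophages, a ratio of 1.47 (1.41 to 1.54). Acp5 stood at 137 CPM (132 to 142) and 173 CPM (168 to 179), a ratio of 1.27 (1.21 to 1.33). Dcstamp went the other way, at 155 CPM (150 to 160) in male and 129 CPM (124 to 133) in female macrophages, a ratio of 0.83 (0.79 to 0.87) that turned to 1.05 once macrophage clusters were weighted alike. The 2 fusion genes were thus on opposite sides in the same cells, by margins that counting error does not cover but that no replicate checks.

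**Figure D1:**
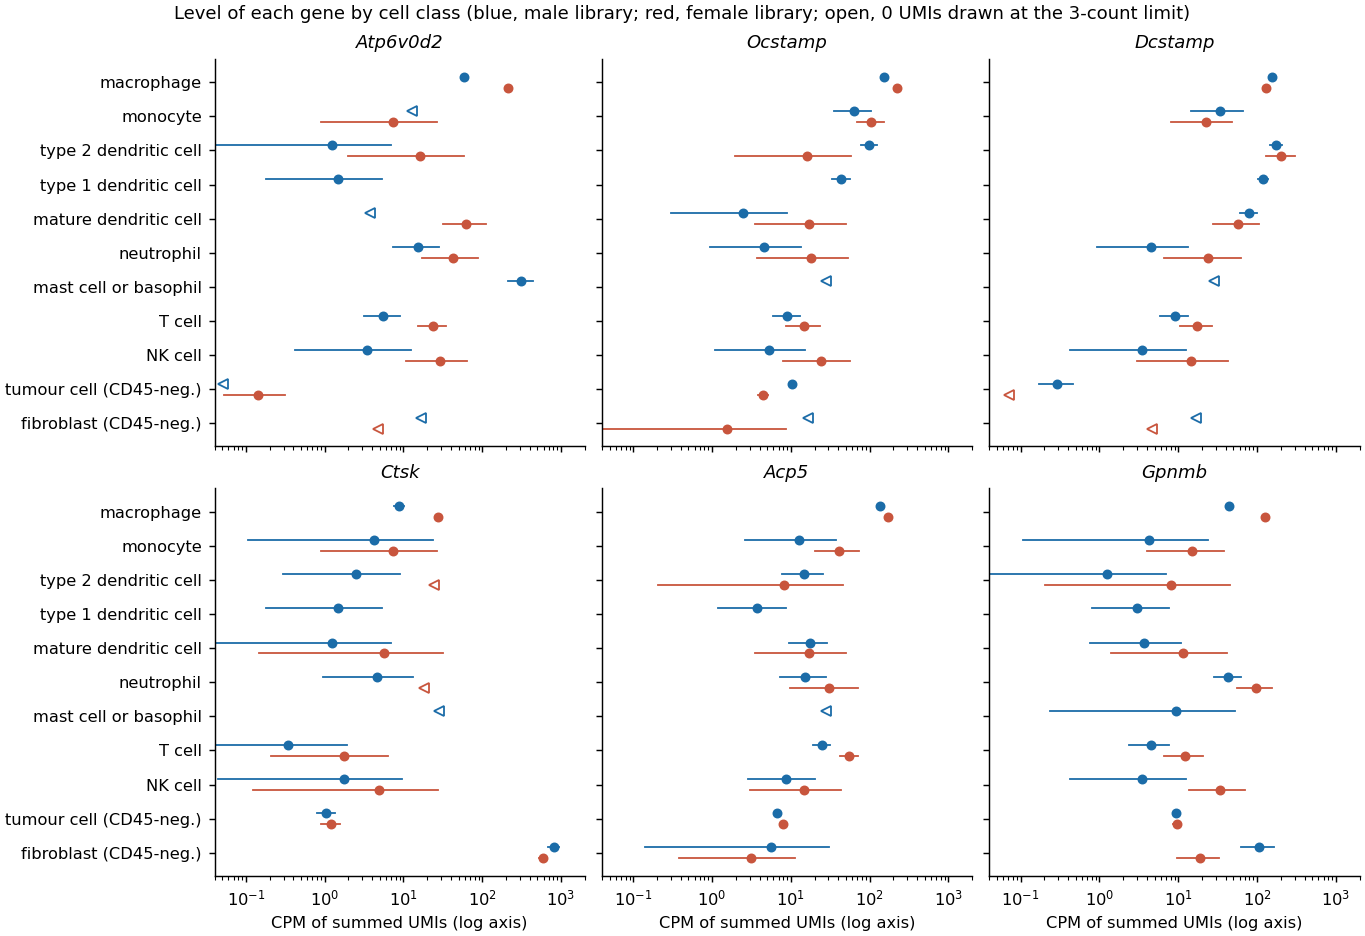
CPM of summed UMIs (x axis, log scale) of each gene by cell class (y axis), for classes of at least 15 cells. Points are libraries, blue male and red female; lines are 95% counting intervals, and open triangles are classes with 0 UMIs drawn at the limit that 3 counts set. Ctsk peaks in CD45-negative fibroblasts, Dcstamp is about as high in type 2 dendritic cells as in macrophages, and Atp6v0d2 is high in male mast cells or basophils.

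The genes differed in how many macrophages held them. To compare cells of unequal depth, shares were computed at 2000 UMIs per cell, for the 1831 male and 2169 female macrophages with at least that many. Atp6v0d2 was found in 6.81% of male and 20.6% of female macrophages at this depth (13.7% and 39.4% of cells as deposited). Gpnmb was found in 4.39% and 12.1% (10.03% and 28.5% as deposited), and Ctsk in 0.365% and 3.54% (1.82% and 10.6%). For all 3 the share of cells, like the level, was higher in the female library. Ocstamp was found in 20.9% and 27.6% (48.3% and 55.2% as deposited), Acp5 in 20.3% and 23.1% (52.2% and 54.5%) and Dcstamp in 15.6% and 13.6% (30.3% and 31.3%). T cells were used as a class in which macrophage transcripts should be few. At the same depth 0.630% of male and 5.64% of female T cells had an Atp6v0d2 UMI, 1.47% and 3.27% an Ocstamp UMI, 1.36% and 3.45% a Dcstamp UMI and 0.734% and 2.41% a Gpnmb UMI. Acp5 was found in 5.18% and 9.96% of T cells and Ctsk in 0.0336% and 0.182%. Every one of these shares was below that in macrophages of the same library. The summed C1q genes (C1qa, C1qb and C1qc), a macrophage product, stood at 463 CPM in male and 1131 CPM in female T cells. The part of free RNA in the macrophage levels was not tested.

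Some genes sat in few cells. In the male library the 10% of macrophages with the most UMIs of a gene held 94.2% of Atp6v0d2, 99.9% of Gpnmb and all Ctsk UMIs, but 50.5% of Ocstamp and 46.4% of Acp5 UMIs, with Dcstamp at 75.9%. In the female library the same share was 67.4% for Atp6v0d2, 82.5% for Gpnmb and 97.8% for Ctsk. For Ocstamp it was 47.9%, for Acp5 46.6% and for Dcstamp 76.4%. Ocstamp and Acp5 UMIs were thus spread over many macrophages in both libraries. Ctsk had a UMI in 1.82% of male and 10.6% of female macrophages, and Gpnmb in 10.03% of male ones. Their values at or near 100% were therefore fixed by how few cells held them. The measure uses cells as deposited and varies with a gene's level and with depth, so the genes are not ranked by it.

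Among classes of at least 50 cells, macrophages were the highest class for 5 of the 6 genes in the male CD45-positive library and for 6 of 6 in the female one. Macrophages were highest for 6.63% of all genes (male) and 20.3% (female, where fewer classes reached 50 cells). These levels were used to choose the genes. For Gpnmb the order was not resolved in the male library. In 465 male neutrophils it stood at 42.6 CPM (28.3 to 61.6), with 50% of its UMIs in 1 cell. That interval holds the 43.8 CPM of male macrophages. The 120 female neutrophils had 16 Gpnmb UMIs. The cells set aside are in none of these classes. The 191 female ones had Dcstamp at 176 CPM (156 to 199), above the female macrophages, so the female count holds only with them left out. Those of the cluster led by type 2 dendritic cell genes were at 221 CPM in 121 cells. The exception in the male library was Dcstamp, at 173 CPM (146 to 204) in 103 type 2 dendritic cells and 119 CPM (101 to 139) in 133 type 1 dendritic cells. The first interval overlaps that of male macrophages, so the order of these neighbours is not resolved. DC-STAMP takes its name from dendritic cells. Ocstamp was lower there, at 98.9 CPM (78.4 to 123) in type 2 and 43.6 CPM (33.2 to 56.2) in type 1 dendritic cells. Atp6v0d2, Gpnmb and Ctsk were each at 1.24 to 2.95 CPM in those 2 classes, from 1 to 4 UMIs. Male type 1 and type 2 dendritic cells thus had the fusion genes with little of these 3. The 135 male mature dendritic cells had Dcstamp at 78.1 CPM, 36.5% of it in 1 cell, but only 2 Ocstamp UMIs. The 19 male plasmacytoid dendritic cells had 3 Ocstamp and 0 Dcstamp UMIs. The female library had 20 type 2 dendritic cells, with Dcstamp at 203 CPM (131 to 300) and Ocstamp at 16.2 CPM (1.97 to 58.7).

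In 15 male mast cells or basophils, Atp6v0d2 stood at 311 CPM (214 to 437), above that of macrophages in either library. It came from 33 UMIs in 7 of the 15 cells, with 48.5% of them in 1 cell. Acp5, found in over 50% of macrophages, had 0 UMIs in the same cells, which at 3 counts allows up to 28.3 CPM. The 4 such cells of the female library held 9 UMIs of Atp6v0d2, in 2 cells, and 2 UMIs of Acp5, in 1 cell. Acp5 stood at 24.6 CPM (19.2 to 31.01) in male and 54.8 CPM (42.1 to 70.1) in female T cells. Per 1000 C1q UMIs, T cells had 53.1 male (41.2 to 67.4) and 48.5 female (37.02 to 62.4) Acp5 UMIs, against 12.1 and 18.2 in macrophages. The same ratio was 46.9 (23.9 to 83.3) in male type 2 dendritic cells and 43.2 (23.4 to 73.6) in male mature dendritic cells. It was 35.7 (18.8 to 61.8) in tumour cells of the male CD45-positive library and 49.8 (24.5 to 90.8) in female monocytes. In the other library the intervals of these classes held the macrophage value. They were 0.224 to 50.8 in female type 2 and 3.65 to 53.1 in female mature dendritic cells. In female tumour cells the interval was 2.84 to 88.7, and in male monocytes 7.67 to 115. NK cells, at 20.2 (6.52 to 47.9, male) and 13.1 (2.68 to 38.8, female), also had intervals that held it. The source of the Acp5 UMIs in these classes was not tested. Monocytes, which precede macrophages, had Ocstamp at 63.7 CPM (35.6 to 105) in 58 male and 104 CPM (69.1 to 150) in 73 female cells. Their Atp6v0d2 was at 0 and 2 UMIs.

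In the CD45-negative libraries Ctsk was a fibroblast gene. It stood at 807 CPM (681 to 949) in 20 male and 586 CPM (528 to 649) in 59 female fibroblasts, found in 19 and 48 of them. The next level among named classes of at least 50 cells was the 27.1 CPM of female macrophages. Unassigned cells reached 31.7 CPM in the female CD45-positive library. Cathepsin K is known as a collagenase of activated fibroblasts. Fibroblast markers in macrophages summed over 8 genes to 9.05 CPM (male, with 1 gene at 0) and 26.6 CPM (female). Their part in the macrophage Ctsk levels was not tested. Gpnmb was also found in fibroblasts, at 105 CPM (63.2 to 164) in male and 18.8 CPM (9.69 to 32.8) in female cells. Atp6v0d2 and Dcstamp had 0 UMIs in fibroblasts of both libraries.

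Tumour cells (4725 male and 3495 female) held low levels of 4 of the genes. Ocstamp stood at 10.2 CPM (9.43 to 11.1) in tumour cells of male and 4.41 CPM (3.80 to 5.10) in those of female mice, a male:female ratio of 2.32 (1.96 to 2.75). This was opposite to the direction in macrophages. Among 16037 genes tested in tumour cells, 5.12% reached 2-fold towards the male and 4.23% towards the female library. Gpnmb, at 9.43 and 9.57 CPM, and Ctsk, at 1.04 and 1.2 CPM, had intervals of the ratio that held 1. Acp5 stood at 6.68 CPM (male) and 8.03 CPM (female), with a female:male interval of 1.04 to 1.4. C1q was scarce there, at 2.49 and 2.35 CPM. Per 1000 C1q UMIs, male tumour cells had 4103 Ocstamp UMIs against 13.4 in macrophages, and female tumour cells 1878 against 23.2. Atp6v0d2 was not listed in the male CD45-negative library and was taken as 0 UMIs, a limit of 0.0513 CPM at 3 counts. In the female tumour cells it had 6 UMIs. Of the 17 Dcstamp UMIs in male tumour cells, 1 cell held 94.1%, and the female ones had 0 UMIs.

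Macrophages were then divided into clusters without the 6 genes, to see where each was high. There were 7 clusters after 2 were set aside, and most were unequal between the libraries. Where nearly all cells of a cluster come from 1 library, state and library cannot be told apart. Cluster 1 (94 male and 999 female cells) was led by Cdh1, the monocyte genes Ly6c2 and Ccr2, and Fn1. Cluster 2 (784 and 29) was led by Cx3cr1, Vcam1 and Il10, and cluster 3 (65 and 563) by Chil3, Mmp9 and Slc7a2. Cluster 4 (430 and 119) was led by Alox15, Retnla and Ear2, genes of alternatively activated macrophages. Cluster 5 (306 and 127) was led by the proliferation genes Top2a and Mki67, and cluster 6 (128 and 302) by the interferon-stimulated genes Rsad2 and Ifit2, with Nos2 and Hspa1a. Cluster 7 (167 and 188) was shallow, with a median of 1302 UMIs, and against the other macrophages it was led by the plasma cell gene Jchain and the lymphocyte genes Gzma, Il2rb, Gzmb, Gzmc and Icos. It was kept because 4 macrophage markers were among its top 10 genes against all other cells. Its ratios are those of a cluster with lymphocyte RNA, whose part in them was not tested.

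The 6 genes divided into 2 sets over these clusters. Atp6v0d2, Gpnmb, Ctsk and Acp5 were high in cluster 3, and Atp6v0d2, Gpnmb and Acp5 also in cluster 6, whereas Dcstamp and Ocstamp were highest in cluster 4. Male Acp5 was also high in the 784 cells of cluster 2, at 181 CPM. That cluster held 55.4% of the male Acp5 UMIs in the 9 clusters, while Atp6v0d2 was at 43.7 CPM and Gpnmb at 29.3 CPM there. The division was not clean for Ctsk either. Female Ctsk was second in cluster 4, at 38.4 CPM against 25.1 CPM in cluster 6. However, 1 cell held 42.6% of those cluster 4 UMIs. Without the cell with most Ctsk UMIs in each cluster, the 2 values were 22.3 and 22.2 CPM. Atp6v0d2 stood at 422 CPM (male) and 416 CPM (female) in cluster 3 and at 272 and 385 CPM in cluster 6. Its lowest level was in the proliferating cluster 5, at 9.21 and 42.7 CPM, a range of 45.8-fold (male) and 9.74-fold (female). Gpnmb stood at 367 CPM (45.0% of it in 1 male cell) and 199 CPM in cluster 3 and at 234 and 345 CPM in cluster 6, against 6.66 and 57.3 CPM in cluster 4. Female Gpnmb was lowest in cluster 1, at 27.3 CPM. Acp5 had a narrower range, from 70.4 CPM in cluster 4 to 235 CPM in cluster 3 of the male library. In cluster 6 it stood at 201 CPM (male) and 215 CPM (female). In the female library it ran from 102 CPM in cluster 1 to 266 CPM in cluster 3. In female cells Ctsk was also highest in cluster 3, at 52.2 CPM. The male value there, 221 CPM, rested on the 1 cell with 148 UMIs, and the other male cells of the cluster held 3 UMIs. That cell, with 16730 UMIs in all, also held 31 of Acp5, 25 of Atp6v0d2, 7 of Ocstamp, 3 of Dcstamp and 1 of Gpnmb.

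Dcstamp stood at 438 CPM (male) and 518 CPM (female) in cluster 4, against 35.05 and 72.3 CPM in cluster 3. Cluster 4 held 56.6% of all male Dcstamp UMIs in the 9 clusters and 25.5% of the female ones. Ocstamp had the flattest pattern of the 6, highest in cluster 4 at 252 and 319 CPM and lowest in cluster 3 at 101 and 154 CPM, a range of 2.50-fold and 2.07-fold. Both fusion genes were therefore low where Atp6v0d2 was highest. In cluster 6 Dcstamp and Atp6v0d2 were both found, with Dcstamp at 245 and 150 CPM.

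**Figure D2:**
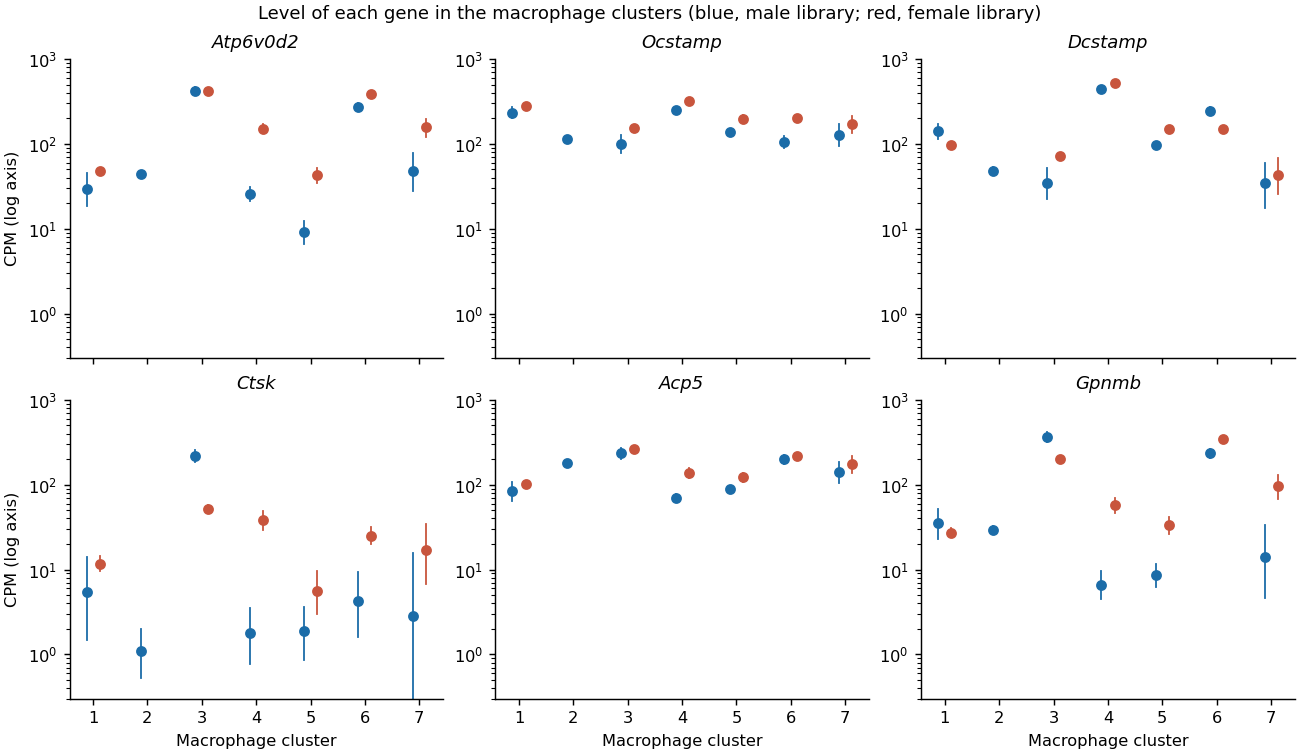
CPM (y axis, log scale) of each gene in the 7 macrophage clusters (x axis), blue for the male and red for the female library. Points are clusters of at least 50 cells in that library and lines are 95% counting intervals. Atp6v0d2 and Gpnmb rise in clusters 3 and 6, Dcstamp in cluster 4, and the male Ctsk point in cluster 3 rests on 1 cell.

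Across the 13 combinations of cluster and library with at least 50 cells (7 of the male and 6 of the female library), levels on the log2(CPM + 1) scale of Atp6v0d2 correlated with those of Gpnmb at r = 0.94, of Acp5 at 0.87 and of Ctsk at 0.78. Ocstamp and Dcstamp correlated at 0.63 with each other. Between the sets r ran from -0.55 (Ocstamp and Acp5) to 0.02 (Ocstamp and Ctsk). These points share libraries and cells, and the correlations only describe them. All Ctsk correlations, and the genes most like it, include the male cluster 3 point at 221 CPM. Without its 1 cell with 148 UMIs that point is at 4.49 CPM, and the correlations were not computed without it. Among the 9344 genes with at least 200 UMIs, those most like Atp6v0d2 were Fbxo32, Xdh and the collagenase gene Mmp13 (r of 0.94, 0.93 and 0.93). Most like Gpnmb were Atp6v1b2, a V-ATPase subunit (0.97), the autophagy protease gene Atg4c (0.95) and Ctsl, cathepsin L (0.95). Acp5 was followed by Dhrs3 (0.97) and the lysosomal proteases Ctsd (0.97) and Ctsb (0.96), and Ctsk by Fbxo30, Cmas and Mitf (0.87, 0.87 and 0.86). Most like Dcstamp were Map4k1, Sema7a and Pgap2 (0.90, 0.88 and 0.87) and among those most like Ocstamp were Sec61b and Cnn3 (0.94 and 0.92).

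Co-detection in single macrophages matched these sets in part. The ratio used is the share of cells with both genes divided by the product of the 2 shares, at 2000 UMIs per cell, so that 1 is what independent detection gives. Atp6v0d2 and Gpnmb were found together in 1.74% of male cells against a product of 0.299%, a ratio of 5.82, and in 6.15% of female cells against 2.50%, a ratio of 2.46. Of male cells with Atp6v0d2, 25.5% had Gpnmb, against 2.84% of those without it; in female cells the shares were 29.9% and 7.52%. Ctsk and Gpnmb had ratios of 3.96 (male) and 2.82 (female), Atp6v0d2 and Ctsk 3.99 and 2.32, and Atp6v0d2 and Acp5 1.71 and 1.61. The male Ctsk pairs rest on 36 cells with a Ctsk UMI. The fusion genes Ocstamp and Dcstamp had a ratio of 1.53 in male and 1.33 in female cells. Ocstamp and Gpnmb were found together less often than the product, at 0.49 and 0.74, and Ocstamp and Atp6v0d2 came close to it, at 0.93 and 0.86. Dcstamp and Atp6v0d2, both needed for fusion, had 1.15 and 1.17.

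In all, 7 of the 15 pairs reached a ratio of 1.5 in male and 4 of 15 in female macrophages. The male count was 3 in cells as deposited and 4 at 5000 UMIs per cell. Over all pairs of genes detected in the same range of shares, 6.1% of pairs reached 1.5 in male and 0.134% in female cells, with medians of 0.99 and 1.00. The rule used this readout, so nothing is read from the difference. Within clusters, with the product taken in each cluster and summed, Atp6v0d2 and Gpnmb had 2.26 (male) and 1.63 (female), Ctsk and Gpnmb 2.24 and 2.06, and Ocstamp and Dcstamp 1.25 and 1.26. Across the sets, Dcstamp and Ctsk were as high as the fusion pair in both libraries, at 1.41 and 1.27. Atp6v0d2 and Dcstamp were as high in male cells, at 1.26, but lower in female cells, at 1.19. Ctsk and Acp5, in 1 set, had 1.61 in male but 1.11 in female cells. The count of pairs was then 4 in male and 3 in female cells, and the male ratio of Atp6v0d2 and Gpnmb was less than the 5.82 found over all macrophages.

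**Figure D3:**
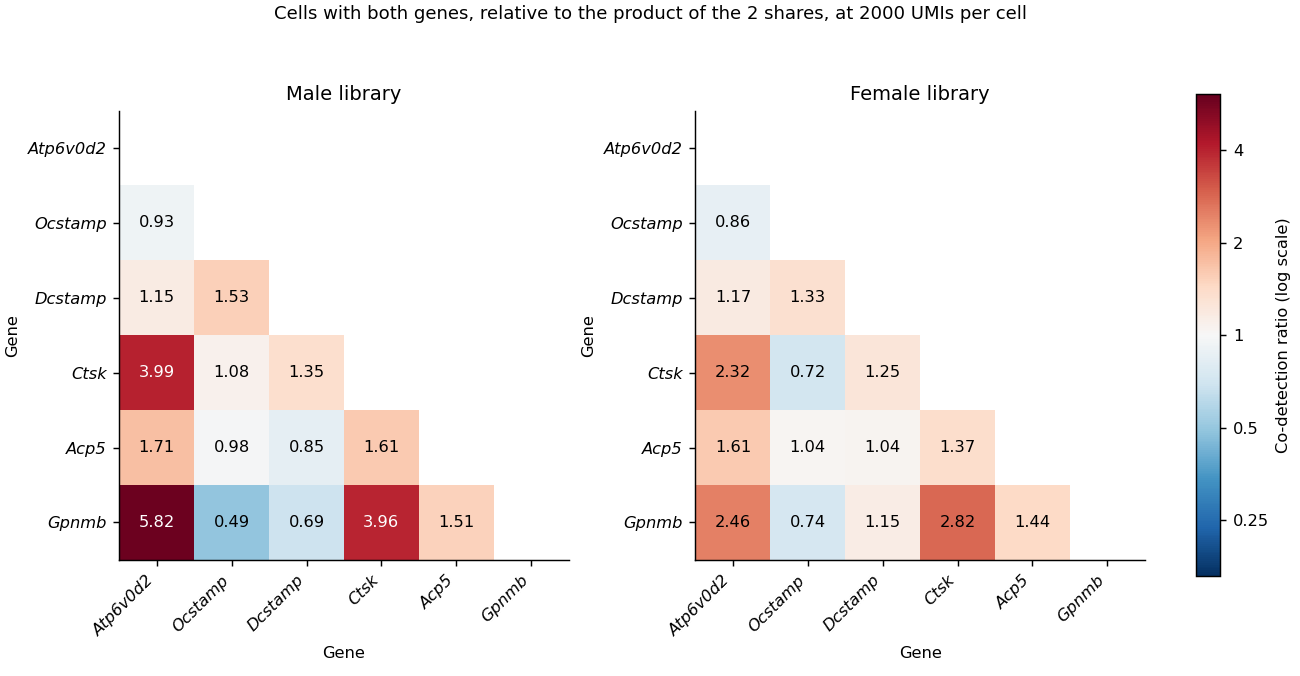
Co-detection ratio of each pair of genes (both axes) in macrophages of the male and female libraries, at 2000 UMIs per cell; red is above 1, blue below 1, on a log colour scale. The pairs among Atp6v0d2, Ctsk and Gpnmb have the highest ratios in both libraries, and Ocstamp with Gpnmb the lowest in the male library.

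Few cells held the whole set. As deposited, 4 male and 34 female macrophages had a UMI of each of the 6 genes, and 21 male and 142 female macrophages had 5 of them. At the other end 400 male (20.3%) and 362 female (15.6%) macrophages had none of the 6. Brought to 2000 UMIs, 49.5% of male and 37.2% of female macrophages had none, and 0.297% and 1.54% had 4, so depth limits how often the full set can be seen.

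**Figure D4:**
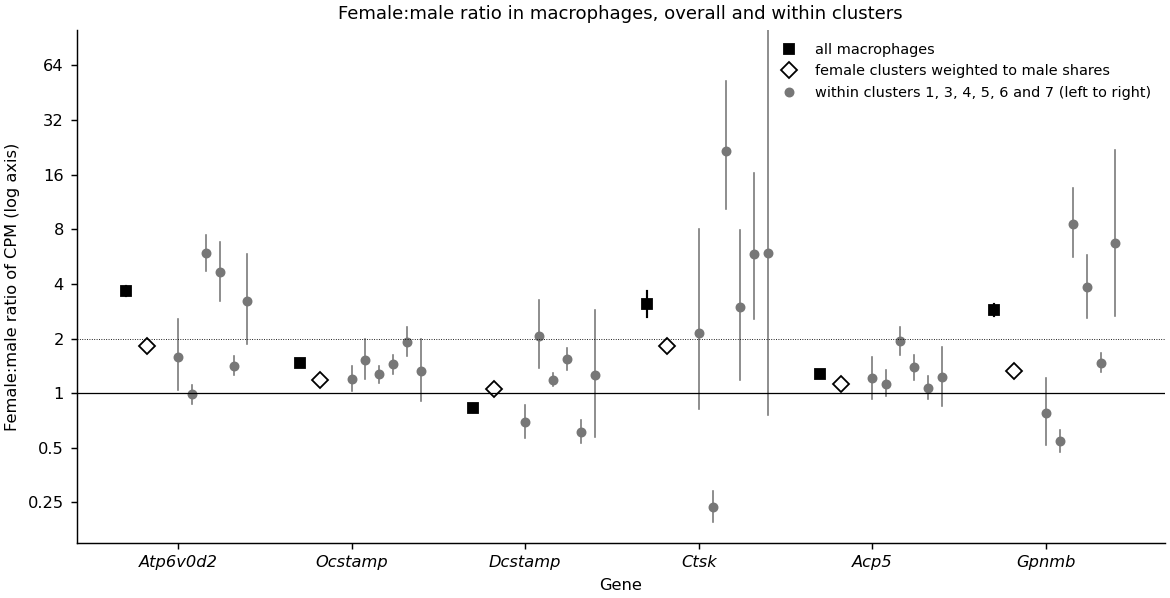
Female:male ratio of CPM (y axis, log scale) of each gene. Squares are all macrophages, diamonds the same with female clusters weighted to the male shares, and grey points the clusters with at least 50 cells in both libraries; lines are 95% counting intervals, the Ctsk interval in cluster 7 running past the axis. No diamond lies above the dotted line at 2, whereas 3 squares do. The Ctsk square and diamond both include the male cell with 148 Ctsk UMIs.

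Because the clusters differed in size between libraries, the ratios were also taken within the 6 clusters with at least 50 cells in both. For Atp6v0d2 they ran from 0.99 (0.87 to 1.12) in cluster 3 and 1.42 (1.26 to 1.59) in cluster 6, where it was high in both libraries, to 5.95 (4.74 to 7.49) in cluster 4. In 5 of 6 clusters the interval lay above 1 and in 1 it held 1. In clusters 1 and 5 the female share of cells with Atp6v0d2 was near that of female T cells, as given above. Gpnmb was 8.61 times (5.64 to 13.5) as high in female as in male cells of cluster 4 and 1.47 times (1.30 to 1.67) in cluster 6. In cluster 4 a single female cell held 37.4% of the female Gpnmb UMIs. Without the cell with most UMIs in each library, the Gpnmb ratio there was 6.81 (4.16 to 11.5). In cluster 3 its ratio was 0.54 (0.48 to 0.62), or 0.92 (0.77 to 1.10) without the cell with most UMIs in each library. Ctsk in cluster 3 turned from 0.24 (0.20 to 0.29) to 9.30 (3.15 to 45.4) without those cells. The ratio of these genes thus ran over a wide range between clusters, and the single male cell set that of Ctsk in cluster 3.

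The ratio of Ocstamp was above 1 in all 6 clusters, from 1.2 to 1.92, with 1 interval that held 1. Acp5 ran from 1.07 to 1.93, and 4 of its 6 intervals held 1. Without the cell with most UMIs in each library, Acp5 was higher in female cells of clusters 1 and 3 too, at 1.40 (1.06 to 1.89) and 1.35 (1.13 to 1.63). Dcstamp was higher in female cells in 3 clusters and in male cells in 2, cluster 1 at 0.69 (0.56 to 0.86) and cluster 6 at 0.61 (0.53 to 0.71). In cluster 1 this rested on few cells, the ratio being 0.86 (0.68 to 1.09) without the top cell of each library. With the female clusters weighted to the male library's shares, the ratios became 1.83 for Atp6v0d2, 1.82 for Ctsk, 1.33 for Gpnmb, 1.19 for Ocstamp and 1.12 for Acp5. That of Dcstamp turned from 0.83 to 1.05. None of the 6 genes then reached 2-fold, against 3 without the weights. The weighted Ctsk ratio keeps the male cell with 148 of the 189 male UMIs, and it was not computed without that cell. The weights are the shares of UMIs that each cluster has in the male library. Cluster 2, with 784 male cells, carries the largest weight but has only 29 female cells. Those cells held 18 Atp6v0d2, 6 Gpnmb and 2 Ctsk UMIs, so much of each weighted value rests on few counts.

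Other genes of the osteoclast pathway were mostly close between the libraries. Of the 52 genes of that list, 47 had at least 20 UMIs, and 6 of them were at least 2-fold higher in female macrophages and none in male ones, with a median log2 female:male ratio of 0.05. With macrophage clusters weighted alike, 3 rather than 6 were that much higher. In the same cells 4.2% of all genes were that much higher in the female and 3.71% in the male library, with a median of 0.01. Among ligands and receptors, Tnfsf11 had 3 male and 19 female UMIs in macrophages, a ratio of 5.94 (1.75 to 31.3), and its receptor gene Tnfrsf11a had a ratio of 0.76 (0.68 to 0.84). Csf1r, the CSF1 receptor and the receptor gene with most UMIs, stood at 1097 CPM in male and 1011 CPM in female cells. Among named classes Tnfsf11 was highest in T cells, at 77.9 CPM (68.1 to 88.8, male) and 160 CPM (138 to 185, female). T cells held 225 of the 382 Tnfsf11 UMIs of the male library and 184 of the 495 of the female one. Tnfrsf11a was highest in mature dendritic cells, at 120 CPM (97.6 to 147) in 135 male and 115 CPM (70.0 to 177) in 38 female cells.

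Of the 12 transcription factors none passed 2-fold in either direction. Nfatc1 had a ratio of 0.83 (0.78 to 0.89) and Mitf of 1.56 (1.39 to 1.76). Relb, an NF-kB subunit needed for osteoclast formation, was among the lowest of the list at 0.62 (0.57 to 0.68), with the NF-kB inhibitor gene Nfkbie at 0.59 (0.57 to 0.62). Fusion and adhesion genes held 3 of the 6 higher genes. Itgb3, the integrin beta chain with which osteoclasts attach to bone, stood at 3.74 CPM in male and 17.1 CPM in female macrophages, a ratio of 4.57 (3.59 to 5.88). Cdh1, E-cadherin, stood at 39.3 and 175 CPM, a ratio of 4.46 (4.14 to 4.81), and Adam8, a metalloprotease, at 212 and 471 CPM. Both tetraspanins went elsewhere: Cd81, which restrains macrophage fusion, stood at 694 CPM in male and 374 CPM in female macrophages, a ratio of 0.54 (0.53 to 0.55), and Cd9 had 1.14. Resorption genes gave the remaining 2 of the 6, Car2 (carbonic anhydrase, which supplies protons) at 6.23 and 19.4 CPM and Mmp9 (gelatinase) at 140 and 301 CPM. Itgb3 and Car2 were higher in T cells and NK cells than in macrophages of both libraries. The part of lymphocyte RNA in their macrophage levels was not tested. The adaptor genes Fcer1g and Tyrobp, with most UMIs in the list, had ratios of 1.08 and 0.93.

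The other V-ATPase genes differed little. None of the 18 measured genes of 22 other pump subunits and accessory proteins was 2-fold different in either direction, and the median log2 ratio was 0.09. The ubiquitous form of the same subunit, Atp6v0d1, stood at 206 CPM in male and 215 CPM in female macrophages, a ratio of 1.04 (1.00 to 1.08). The largest ratio of the list was that of Atp6v1b2, 1.46, followed by Atp6v1c1 at 1.30 and Atp6v1h at 1.28. The smallest were Atp6v0c at 0.81, Atp6v1g2 at 0.91 and Tcirg1, the a3 subunit of the osteoclast pump, at 0.91 (0.88 to 0.95). The subunit genes with most UMIs, Atp6v1a and Atp6ap2, had ratios of 1.08 and 1.05.

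Among 24 lysosomal cathepsin and hydrolase genes, all measured, 2 were at least 2-fold higher in female macrophages and 1 in male ones, with a median log2 ratio of 0.03. With macrophage clusters weighted alike, 1 rather than 2 was that much higher in female cells. Ctsl stood at 384 CPM in male and 947 CPM in female cells, a ratio of 2.46 (2.40 to 2.53). Ctsw, a cathepsin of cytotoxic lymphocytes, stood at 2.03 and 5.59 CPM, beside NK cell markers that summed to 18.4 and 59.8 CPM in the same macrophages, and their part in it was not tested. Ctsf stood at 38.1 CPM in male and 12.3 CPM in female macrophages, a ratio of 0.32 (0.28 to 0.37). Lamp1, a lysosomal membrane protein gene, had a ratio of 0.80. The most abundant genes of the list, Psap, Ctsb and Ctss, had ratios of 0.85, 1.03 and 1.26.

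**Figure D5:**
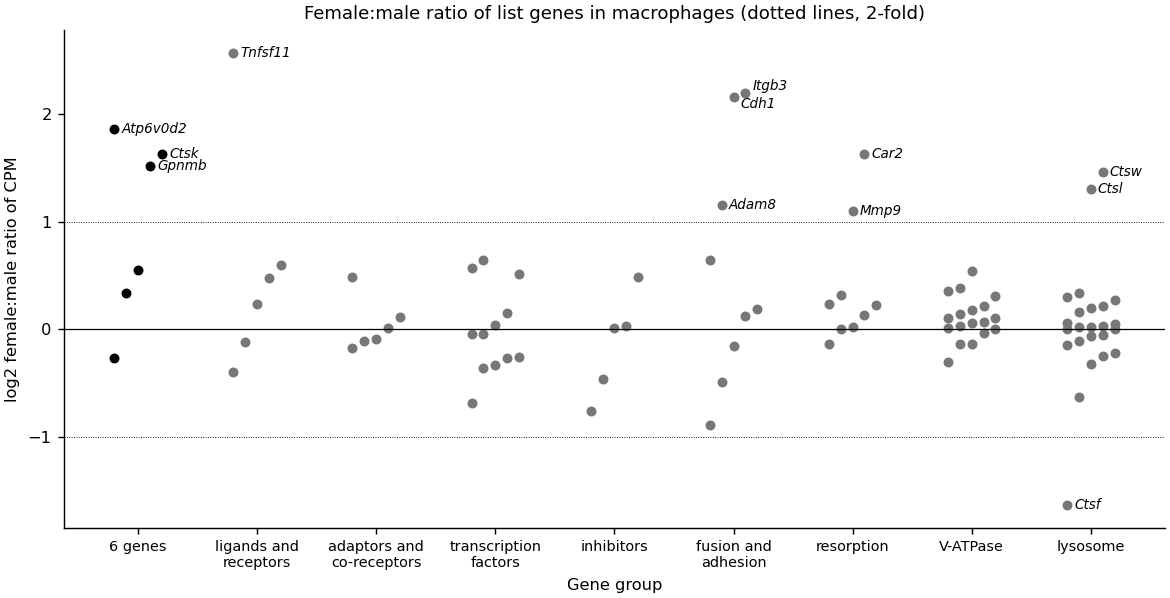
Log2 female:male ratio of CPM in macrophages (y axis) of the 6 genes (black) and of measured genes of the osteoclast pathway by role, the V-ATPase and the lysosome (grey). Each point is a gene and dotted lines mark 2-fold. Genes past 2-fold are named, and no V-ATPase gene of the list is among them.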

How the data were processed

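The authors deposited whole-number UMI counts per gene and cell, not normalized, 1 matrix per library, with genes by symbol. Per the submitters' processing notes, CASAVA 1.8, UMI-tools, Seurat and the build mm10 were used. No aligner is named there. Genes that a library does not list count as 0. Cells needed 500 UMIs, 250 genes and a mitochondrial share of at most 25%. The members and lists were chosen with earlier results of these data known, and the marker thresholds were set after seeing the data. Doublets were not called: cells passing 2 gates were kept apart as mixed. Macrophages were clustered without the 6 genes (scanpy 1.11.5, leidenalg 0.10.2). From the deposited counts, CPM of summed UMIs was computed with exact Poisson intervals, ratios with exact conditional binomial intervals and shares with exact Clopper-Pearson intervals (scipy 1.17.1, numpy 2.4.6), all at 95% and for counting error only. A count of 0 has a limit of 3 counts. Shares at 2000 UMIs are the hypergeometric expectation, with shallower cells left out. List genes needed 20 UMIs. The text names, from each list, the 3 largest and 3 smallest ratios and the 3 genes with most UMIs, and for each member the 3 genes with the most similar levels over clusters. A few genes that this rule selects are not reported here. Other list genes (Tnfrsf11a, Nfatc1, Mitf, Adam8, Car2, Mmp9, Cd9, Atp6v0d1) were named after their values were seen. The code was tested on simulated counts. Alternatives covered the cell filter, gate, clustering, scaling, single cells, cluster shares and depth.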

Additional observations from a re-analysis of the deposited data

Results flagged for a closer look

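Ocstamp went opposite ways in the cells of both sorts. Its female:male ratio was 1.47 in CD45-positive macrophages and 0.431 in CD45-negative tumour cells. It was picked out because the direction differs between the cell classes under the same comparison of host sex. With 1 library per group the difference between the classes was not tested.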

How the results depend on the processing

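No paired analysis was possible because each group is 1 library. The choice of cluster shares moved most values. With the female clusters weighted to the male shares, 0 of the 6 genes reached 2-fold (3 without weights), 3 osteoclast pathway genes (6 without) and 1 lysosomal gene (2 without), and the Dcstamp ratio turned from 0.83 to 1.05. The cause was not tested. The weighted Ctsk ratio keeps the male cell with 148 of the 189 male UMIs, and it was not computed without that cell. The number of male pairs with a co-detection ratio of at least 1.5, 7 at 2000 UMIs, was 3 in cells as deposited, 4 at 5000 UMIs and 4 with the product within clusters. Of the alternatives for the counts, 58 gave a value within 1.5 times the reported one and 6 did not. For single ratios, 62 stayed within counting error, 18 moved beyond it and 1 reversed. Over the alternatives the ratio ran from 1.83 to 3.95 for Atp6v0d2, 1.33 to 3.16 for Gpnmb, 1.82 to 14.8 for Ctsk, 1.19 to 1.48 for Ocstamp, 1.12 to 1.29 for Acp5 and 0.711 to 1.05 for Dcstamp. The male:female ratio of Ocstamp in tumour cells was 2.33 to 2.35. Keeping the set-aside clusters, leaving out cluster 7, adding mixed cells, the count of genes past 2-fold without single cells and the tumour cell alternatives were chosen after seeing the data. Depth limits the Ctsk values, with 189 male UMIs in macrophages.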
